A study of Homo sapiens with 6 samples.

Results

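Expression of 10 chemokine genes of the CXC, CC and CX3C families is described here: CXCL1, CXCL2, CXCL3, CXCL5, CXCL6, CXCL8, CXCL16, CCL2, CCL20 and CX3CL1, out of 29483 genes in the deposited expression table. They were chosen by name as chemokines of injured tubular epithelium, at a time when their values in these libraries were already known, so the levels and changes of the 10 genes are given as a description and support no conclusion. HK-2 is an immortalized human line derived from renal proximal tubule, and the study asked how it responds to TEPP-46, a small molecule that favours the tetramer of the glycolytic enzyme pyruvate kinase M2. The control group (n = 3 libraries) spent 7 days in medium with 25 mM high D-glucose (HG) and then a further 1 day without TEPP-46. Cells of the case group (n = 3 libraries) had the same exposure to HG and received 10 μM TEPP-46 on that further 1 day. HG was therefore shared by both groups, and no library without HG was analysed here. All libraries came from this 1 cell line, and the study describes the replicates as independent without saying whether they were separate cultures from the start. The FPKM values rest on 18634891, 17924033 and 17378710 counted reads for control libraries 1 to 3 and on 16711934, 16047243 and 15363254 for case libraries 1 to 3.

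Chemokines are small secreted or membrane-anchored proteins that draw leukocytes along a concentration gradient by binding G protein-coupled receptors. CXC chemokines with a Glu-Leu-Arg motif before the first cysteines, which are CXCL1, CXCL2, CXCL3, CXCL5, CXCL6 and CXCL8 in this set, act on CXCR2, in part also on CXCR1, and recruit neutrophils. CCL2 attracts monocytes through CCR2, CCL20 attracts lymphocytes and dendritic cells through CCR6, and CXCL16 and CX3CL1 are made as membrane-anchored proteins that metalloproteases can release. In tubular epithelium these genes are classical targets of NF-kappaB, and their mRNAs are often short-lived because of AU-rich elements near the 3′ end.

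The labelled cell type was compared with its markers. The keratins of simple epithelium were abundant, with KRT19 at 358, 345 and 352 FPKM in the control group and 384, 300 and 336 FPKM in the case group. GATM, a proximal tubular enzyme of creatine synthesis, lay between 2.36 and 3.35 FPKM. Several defining markers of differentiated proximal tubule were at or near 0. The endocytic receptor LRP2 was above 0 in control library 2 only, from 2 reads, and among CUBN, AQP1, SLC34A1, SLC5A2, PAX2 and PAX8 the highest value in any library was 0.193 FPKM, for PAX8. Thus 6 of the 16 tubular markers in the table reached the mean of 0.5 FPKM that was required for testing. Of 13 leukocyte markers, 7 were in the table, and their summed level was 1.17, 0.781 and 0.990 FPKM in the control group and 0.487, 0.356 and 0.390 FPKM in the case group. The most abundant of them was CD14, a co-receptor for bacterial lipopolysaccharide, with 0.882, 0.621 and 0.915 FPKM against 0.286, 0.231 and 0.276 FPKM (limma, log2 fold change -1.24 ± 0.31 SE, adjusted p = 0.0384, lower in 3 of 3 case libraries), a call that was lost in several alternative fits, among them those without the filter on low values (0.0695), control library 2 (0.112) or case library 3 (0.0895). CD14 was below the filter, and so not tested, when control library 1 or 3 was left out or a mean of at least 1 FPKM was required. The other leukocyte markers in the table did not exceed 0.128 FPKM in any library. The 6 endothelial and fibroblast markers in the table summed to at most 0.127 FPKM, with PDGFRB as the most abundant and none of the 6 tested.

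Of these chemokine genes 6 lie together in the CXC cluster of chromosome 4, and their proximal promoters are shown here because they carry the sequence feature that most of the set shares. RefSeq promoters (GRCh38.p14, 250 bases before to 50 bases after the annotated start) were at hand for 7 of the 10 genes, CXCL1, CXCL2, CXCL3, CXCL5, CXCL6, CXCL8 and CCL20. The stretches below run 5′ to 3′ on the strand of the gene and cover the 60 bases from 110 to 51 before the start. Capitals mark bases that match the NF-kappaB consensus on either strand or, in CXCL8, the letters GGAATTTCC.
CXCL1 (chr4:73869283-73869342, + strand): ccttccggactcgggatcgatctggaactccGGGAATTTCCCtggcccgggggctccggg
CXCL2 (chr4:74099246-74099305, - strand): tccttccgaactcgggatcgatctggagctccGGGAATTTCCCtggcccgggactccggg
CXCL3 (chr4:74038740-74038799, - strand): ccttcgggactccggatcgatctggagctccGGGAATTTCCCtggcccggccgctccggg
CXCL5 (chr4:73998728-73998787, - strand): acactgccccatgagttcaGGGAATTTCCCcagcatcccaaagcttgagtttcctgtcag
CXCL6 (chr4:73836568-73836627, + strand): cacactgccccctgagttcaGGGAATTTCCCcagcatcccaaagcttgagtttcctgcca
CXCL8 (chr4:73740459-73740518, + strand): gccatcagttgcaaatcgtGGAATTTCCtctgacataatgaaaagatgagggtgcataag
CCL20 (chr2:227813732-227813791, + strand): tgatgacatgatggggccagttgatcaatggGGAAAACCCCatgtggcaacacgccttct

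The capitals begin at position -79 from the start in CXCL1, CXCL3 and CCL20, at -78 in CXCL2, at -91 in CXCL5 and CXCL8 and at -90 in CXCL6. In CXCL1, CXCL2, CXCL3, CXCL5 and CXCL6 the consensus was found on both strands in overlapping bases, and GGAATTTCC lies inside it. In CXCL8 GGAATTTCC was found without a full consensus, and in CCL20 the consensus was found on the strand opposite to the gene. GGAATTTCC was thus in 6 of 7 promoter windows, while 129 of 27305 RefSeq windows of the same length (0.472%) held it, and the consensus was in 6 of 7 windows and in 10.8% of all. The AP-1 letters TGANTCA were found in CXCL8 only, at -137 to -131, outside the stretch shown, and in 7.76% of all windows. TGATGNAA, the letters of an ATF4 or CHOP composite site, was in none of the 7 windows and in 3.67% of all. All motifs were sought on both strands, and a match is a description of these letters and not of binding.

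The promoters fall into groups of near copies. The window of CXCL5 was 85.3% identical to that of CXCL6, and CXCL1, CXCL2 and CXCL3 were 70.4% to 81.4% identical to each other, while CXCL8 shared at most 45.4% with any of these 5 genes. The coding sequences show the same grouping, with 90.7% to 94.4% identity among CXCL1, CXCL2 and CXCL3 and 87.4% between CXCL5 and CXCL6. Reads of the 3 nearest copies could be mixed up by an aligner. Between 5.26% and 10.1% of the 50-base windows of their main transcripts were shared with a sister gene, but no window of 150 bases, the length of a sequenced read, was shared. Exons of CXCL5 share 422 bases with those of a gene on the other strand, CXCL16 shares 76 and 96 bases with MED11 and ZMYND15 on the other strand, and CXCL6 shares 94 bases with the pseudogene PPBPP1 on the same strand. Reads from the bases shared with PPBPP1 cannot be assigned with certainty. The strandedness of the counting is not given in the sources used here, so the same holds for bases shared with genes on the other strand.

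In the whole data set 13599 genes were tested and 1792 were DE genes at an adjusted p of at most 0.05, where 998 were upregulated and 794 downregulated in the case group. Without scaling between libraries these counts were 662 and 1124, and on the TPM scale, which moved the median of all tested genes to a log2 fold change of -0.19, they were 383 and 2387. Leaving out 1 library moved the total further, to 69, 87 and 105 DE genes without control library 2, 3 or 1, to 192 without case library 3 and to 3495 without case library 2, and the shares of all tested genes given here move with it. Of the 10 chemokines 8 passed the filter on low values, 5 were upregulated DE genes (CXCL1, CXCL2, CXCL3, CXCL8 and CCL20), and 0 were downregulated DE genes, where 7.34% of all tested genes were called in the upward direction and 5.84% in the downward direction. A log2 fold change of at least 1 beside the call was found for 3 of them, CXCL2, CXCL3 and CCL20, against 0.507% of all tested genes. For CXCL2 and CCL20 this depended on the scaling. Their log2 fold changes were 0.98 and 0.96 without scaling and 0.86 and 0.84 on the TPM scale. That of CXCL3 was at least 1.16 in every alternative. After scaling, every case library lay above every control library for 6 chemokines, below for 1 (CXCL6), and the groups overlapped for CXCL16, while 19.5% and 20.4% of all tested genes were fully above and fully below. The 8 tested chemokines had a median log2 fold change of 0.69, and all tested genes one of -0.0017. Since the 10 genes were selected on values of this contrast, nothing is read from these counts. In bulk RNA, fewer cells that express a gene and less RNA per cell cannot be told apart.

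**Figure D1:**
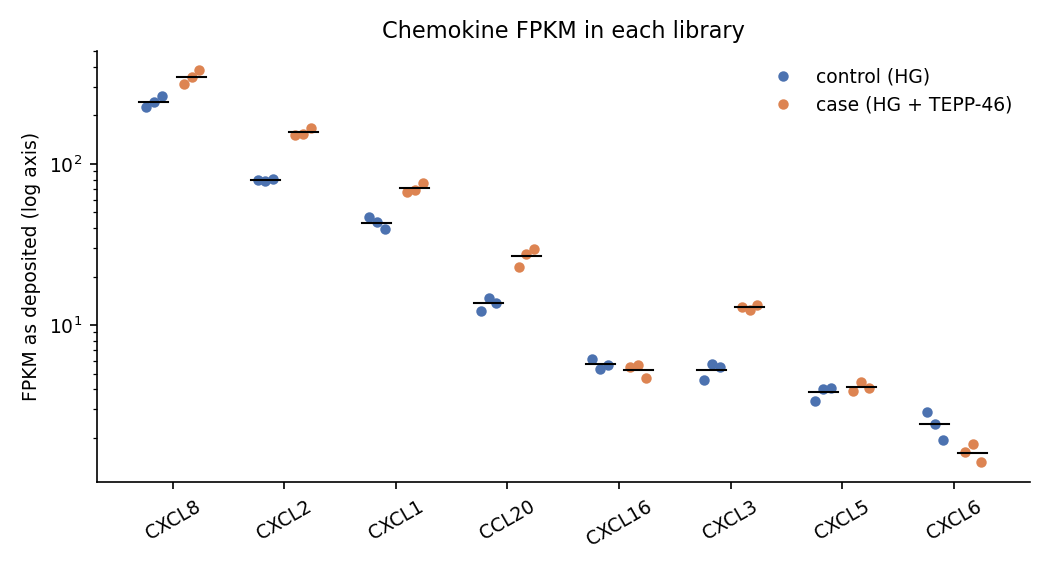
FPKM as deposited (log axis) of the 8 tested chemokines, ordered by their control mean; each point is 1 library, blue for the control group and orange for the case group, and the black lines are group means. CXCL8 lay highest in both groups, and CXCL2 moved from 78.3 to 80.7 FPKM in the control group to 151 to 167 FPKM in the case group.

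Among the neutrophil attractants, CXCL8 (interleukin-8, the classical neutrophil chemokine) was the most abundant transcript of the set. Its level was 225, 241 and 265 FPKM in the control group and 315, 346 and 381 FPKM in the case group, from 9527 to 13315 reads per library. All case libraries were above all control libraries, and the fitted difference after scaling was 1.503-fold (log2 fold change 0.59 ± 0.09 SE). Among genes above 0, CXCL8 ranked 157, 142 and 133 from the top in the control libraries and 131, 98 and 98 in the case libraries. This is the least steady of the 5 calls, because CXCL8 was no longer a DE gene without the filter on low values, with quantile normalization or after any 1 of control libraries 1, 2 and 3 or case library 3 was left out (limma, adjusted p between 0.0504 and 0.0782 in those fits).

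CXCL2, the second most abundant member and a close copy of CXCL1, had the tightest control values. It was measured at 79.3, 78.3 and 80.7 FPKM in the control group and at 151, 154 and 167 FPKM in the case group. The groups were far apart relative to their spread, with a coefficient of variation of 1.503% and 5.10% and a 2.09-fold difference (log2 fold change 1.06 ± 0.07 SE). Counting error for the 2104 to 3839 reads behind each value amounted to 2.16% and 1.63%. The control spread over 3 libraries was thus below what counting alone would give.

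CXCL1, known as the melanoma growth-stimulating chemokine GRO-alpha, followed with 46.6, 43.7 and 39.2 FPKM in the control group and 66.6, 68.6 and 76.3 FPKM in the case group. The groups did not overlap, and the fitted difference was 1.72-fold (log2 fold change 0.78 ± 0.09 SE). CXCL3, the third gene of this GRO family, was far less abundant and had the largest fold change of the 8 tested members. Its level was 4.55, 5.71 and 5.497 FPKM in the control group and 12.9, 12.4 and 13.4 FPKM in the case group. These values rested on 188 to 227 reads per control library and 441 to 477 per case library. The fitted difference after scaling was 2.57-fold (log2 fold change 1.36 ± 0.11 SE).

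CXCL5 and CXCL6, the second pair of near copies in the cluster, were not called. Their promoters carry the same GGGAATTTCCC stretch as those of the GRO genes. CXCL5, an attractant also made by activated epithelium, was at 3.38, 4.001 and 4.06 FPKM in the control group and 3.87, 4.44 and 4.05 FPKM in the case group. These deposited values overlapped, the groups separated only after scaling, and the log2 fold change of 0.19 ± 0.10 SE was not called. On the TPM scale it was -0.01. CXCL6, which acts on both neutrophil receptors, was at 2.90, 2.43 and 1.92 FPKM in the control group and 1.62, 1.83 and 1.40 FPKM in the case group. Here every case library was below every control library, with a log2 fold change of -0.47 ± 0.18 SE that was not called except on the TPM scale. It rested on 73 to 118 control reads and 47 to 64 case reads. Its coefficient of variation was 20.2% in the control group, where counting error alone is 10.2%, and 13.2% in the case group, where counting error is 13.3%.

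Among the CC chemokines CCL20 was expressed and CCL2 was not detected. CCL20 (chromosome 2, 227805739 to 227817564, + strand) was at 12.3, 14.7 and 13.8 FPKM in the control group and at 22.8, 27.4 and 29.7 FPKM in the case group. The groups did not overlap, and the fitted difference after scaling was 2.05-fold (log2 fold change 1.04 ± 0.11 SE). CCL2 (chromosome 17, 34255274 to 34257208, + strand), the main monocyte attractant of injured tubules, was listed at 0 in all 6 libraries. A count of 0 allows up to 3 reads, which over its 1935 exonic bases is 0.0832 FPKM in the deepest and 0.101 FPKM in the shallowest library. This limit covers counting error only.

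For the membrane-anchored pair no difference was called. CXCL16, a scavenger receptor and ligand of CXCR6, was at 6.17, 5.35 and 5.64 FPKM in the control group and 5.53, 5.67 and 4.66 FPKM in the case group, so the groups overlapped (log2 fold change -0.04 ± 0.11 SE). Its sign turned with quantile normalization and without control library 1 or case library 3. CX3CL1, or fractalkine, was above 0 only in case library 2, at 0.0208 FPKM from 2 reads, below the 0.0314 FPKM that 3 reads would give in that library. ADAM10 and ADAM17, the proteases that release both proteins, were tested and not called. ADAM10 was at 5.33, 5.38 and 5.51 FPKM against 2.56, 5.00 and 3.72 FPKM (log2 fold change -0.49 ± 0.19 SE, limma adjusted p = 0.122, lower in 3 of 3 case libraries), and ADAM17, the more abundant of the pair, differed by 0.02 ± 0.21 SE on the log2 scale (limma adjusted p = 0.954).

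**Figure D2:**
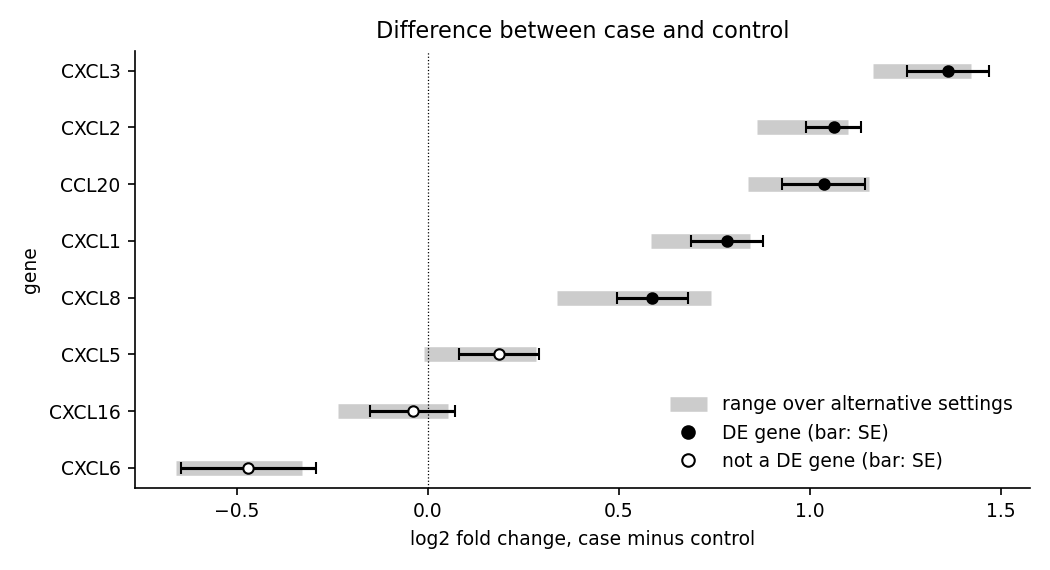
Log2 fold change (case minus control) of the 8 tested chemokines; points are the fitted values with bars of 1 SE, filled for DE genes, and grey bands span the values under the 19 alternative settings. CXCL3, CXCL2, CCL20, CXCL1 and CXCL8 stay to the right of 0 in every setting, while the bands of CXCL5 and CXCL16 reach across 0.

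By FPKM, the order of levels was CXCL8, CXCL2, CXCL1, CCL20, CXCL16, CXCL3, CXCL5 and CXCL6 in the control group. Each neighbour in this order was separate over the 3 libraries, except CXCL16 and CXCL3, whose ranges overlapped. In the case group CXCL3 lay above CXCL16 with no overlap, at 12.4 to 13.4 FPKM against 4.66 to 5.67 FPKM. The rest of the order was the same. FPKM divides by a gene length, here 2219 bases for CXCL3 and 2794 for CXCL16. Their main transcripts have 1075 and 2324 bases. The order, shares and ratios of the genes therefore depend on the length used. The summed FPKM of the set was 380, 396 and 416 in the control group and 580, 621 and 677 in the case group, which is 0.129% to 0.141% and 0.179% to 0.210% of the FPKM of a library.

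The make-up of this sum shifted although its order hardly did. CXCL8 gave 59.1%, 61.0% and 63.7% of the sum in the control group and 54.4%, 55.7% and 56.3% in the case group, where its own level was higher. CXCL2 took 20.9%, 19.8% and 19.4% against 26.1%, 24.9% and 24.6%. The ratio of CXCL8 to CXCL2 was therefore 2.83 to 3.28 in control libraries and 2.08 to 2.29 in case libraries, without overlap. CXCL1 kept a share of 9.43% to 12.3% in control libraries and 11.1% to 11.5% in case libraries, with overlapping ranges. Within the GRO genes, the ratio of CXCL1 to CXCL3 was 7.13 to 10.3 in control libraries and 5.18 to 5.69 in case libraries. CXCL5 was 1.17 to 2.11 times CXCL6 in the control group and 2.39 to 2.89 times in the case group.

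**Figure D3:**
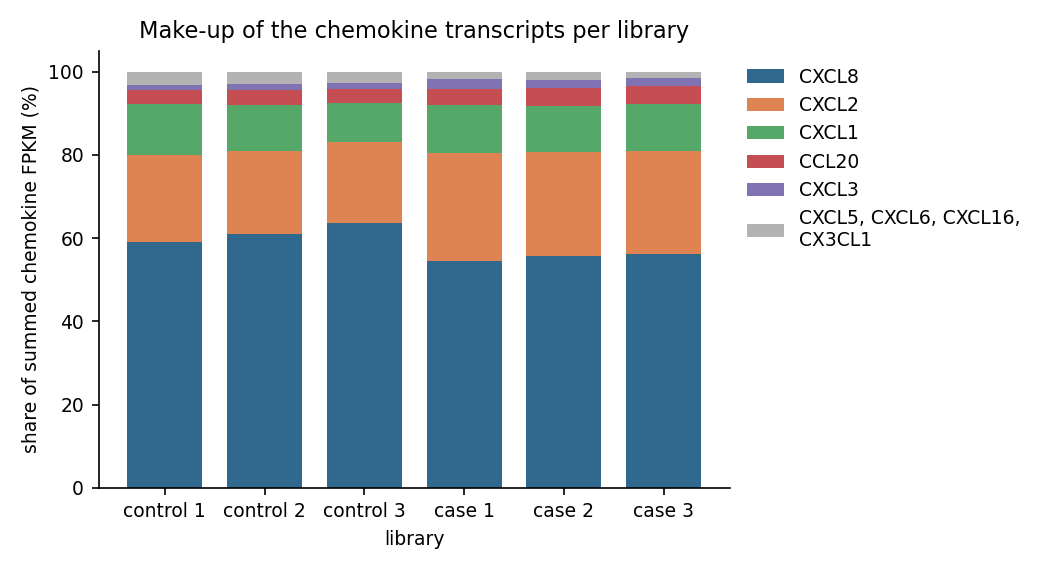
Share of the summed chemokine FPKM (percent) taken by each gene in the 6 libraries, as stacked bars. The CXCL8 part is 59.1% to 63.7% in the control libraries and 54.4% to 56.3% in the case libraries, and the CXCL2 part is 19.4% to 20.9% and 24.6% to 26.1%.

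Within the groups the libraries did not order the genes alike. Case library 3 had the highest CXCL1, CXCL2, CXCL8 and CCL20 of all libraries, and it also had the lowest CXCL6 and CXCL16. In the control group, library 3 had the highest CXCL8 with 265 FPKM and the lowest CXCL1 with 39.2 FPKM. Deviations from the group means on the log2 scale correlated at r = 0.75 between CXCL8 and CCL20, at r = -0.94 between CXCL8 and CXCL6 and at r = -0.96 between CXCL16 and CCL20, over 6 libraries that share their scaling. These are the extreme values among 28 pairs and are given as a description. Over all 6 libraries, the tested genes outside the set most like CXCL2 were CMSS1 (r = 0.999), DUSP14 (r = 0.999) and ZNF16 (r = 0.998), and those most like CXCL8 were SREBF2-AS1 (r = 0.997), EP300-AS1 (r = 0.994) and IFT43 (r = 0.993). These correlations hold the difference between the groups. Whether exons of the antisense genes SREBF2-AS1 and EP300-AS1 share bases with genes on the other strand was not measured. Reads from any such bases could not be assigned if the counting ignored strand.

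The 6 chromosome 4 genes lie within 358.7 kb (GRCh38, GENCODE 44), from CXCL8 (73740519 to 73743716, + strand) through CXCL6 (73836640 to 73849064, + strand), CXCL1 (73869393 to 73871308, + strand), CXCL5 (73995642 to 73998677, - strand) and CXCL3 (74036589 to 74038807, - strand) to CXCL2 (74097040 to 74099196, - strand). CXCL6 and CXCL5, which were not called, lie between genes that were. Within 500 kb on either side the table held 13 other genes, of which 4 were tested. Over all tested genes 7.34% were called upward and 5.84% downward, so nothing is read from calls among 4 genes. AREG, which encodes the EGF receptor ligand amphiregulin, was the DE gene among these 4. It was at 104, 103 and 99.9 FPKM in the control group and 139, 154 and 180.4 FPKM in the case group (limma, log2 fold change 0.70 ± 0.10 SE, adjusted p = 0.0101, higher in 3 of 3 case libraries). Without any 1 of the control libraries 1, 2 and 3 the adjusted p of AREG was between 0.0544 and 0.0611. EREG, a related ligand between AREG and the chemokines, was at 27.5, 30.3 and 29.6 FPKM against 23.3, 36.4 and 30.05 FPKM, with wide overlap (log2 fold change 0.09 ± 0.13 SE, limma adjusted p = 0.658). MTHFD2L (0.38 ± 0.20 SE, limma adjusted p = 0.206) and a long noncoding RNA gene without a symbol (-0.31 ± 0.47 SE, limma adjusted p = 0.680) were not called. PF4, a platelet chemokine inside the cluster, was listed at 0 in the control group and at 0.297, 0.206 and 0.323 FPKM in the case group, below the level required for testing.

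**Figure D4:**
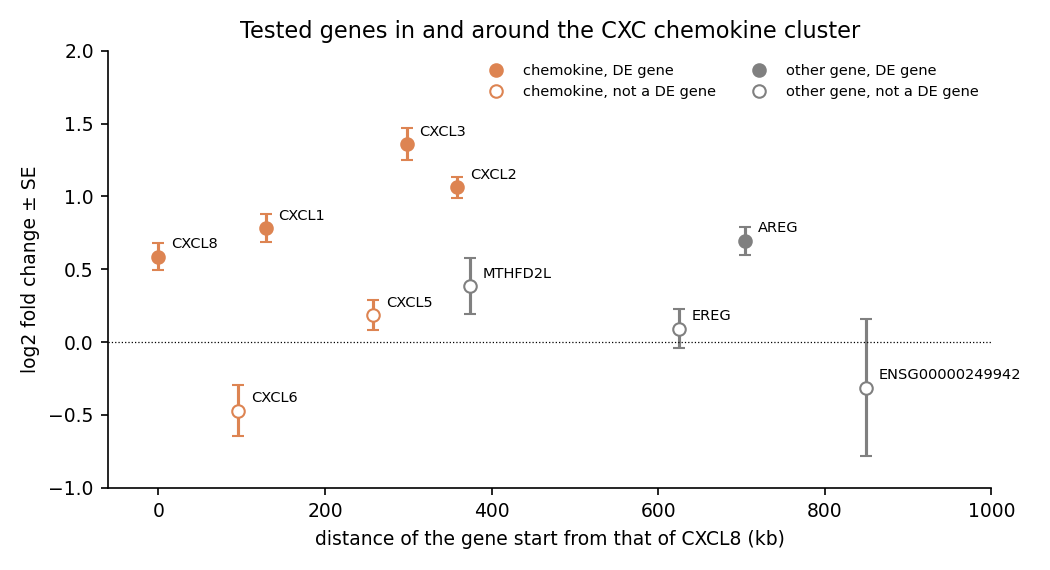
Log2 fold change (± SE) of the tested genes in and around the CXC chemokine cluster against the distance of their start from that of CXCL8 in kb; chemokines in orange, other genes in grey, filled where the gene was a DE gene. CXCL6 at -0.47 and CXCL5 at 0.19 lie between the called CXCL8, CXCL1, CXCL3 and CXCL2, and AREG at 0.70 is the called neighbour.

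Other chemokine ligands were scarce. Of 38 further family members 15 were in the table, and only CCL28, a mucosal epithelial chemokine, passed the filter, with 1.29, 1.21 and 1.65 FPKM in the control group and 0.926, 1.13 and 1.04 FPKM in the case group (limma, log2 fold change -0.31 ± 0.18 SE, adjusted p = 0.245). The summed FPKM of these 15 genes was 1.81 to 2.50 in control libraries and 2.37 to 3.18 in case libraries, with overlap. CXCL10, an interferon-induced ligand for activated T cells, was listed at 0 in the control group and at 0.153, 0.159 and 0.111 FPKM in the case group, too low to be tested. Receptors for the chemokines of the set were hardly expressed by the same cells. Of 23 receptors 14 were in the table and 2 were tested, CCR10 and CXCR4, with 0 called at an adjusted p of at most 0.05 and 0 at an unadjusted p under 0.05 (limma). Over all 13599 tested genes 7.34% and 5.84% were called upward and downward, and 4495 had an unadjusted p under 0.05, so nothing is read from 2 genes. CCR10, the receptor of CCL28, was the most abundant at a mean of 0.663 FPKM. CXCR2 was above 0 only in case library 2, at 0.0579 FPKM, CX3CR1 only in control library 2, at 0.0153 FPKM, and CXCR6 did not exceed 0.0570 FPKM.

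The list of known inducers of these chemokines held cytokines and receptors, and IL6 and LTB were the only cytokines of it that were tested. TNF, a classical inducer, was at 0.3202, 0.0666 and 0.103 FPKM in the control group and 0.393, 0.149 and 0.738 FPKM in the case group, below the filter and overlapping. LTA was at 0.247, 0.321 and 0.0994 FPKM in the control group and 0.276, 0.610 and 0.450 FPKM in the case group, also below the filter and overlapping. IL1B did not exceed 0.0210 FPKM and IL1A did not exceed 0.141 FPKM. IL6, often co-induced with CXCL8, was at 5.84, 5.39 and 5.45 FPKM against 5.15, 4.01 and 6.07 FPKM (limma, log2 fold change -0.07 ± 0.16 SE, adjusted p = 0.780). Of the 21 genes in this list, 20 were in the table, 10 were tested, 0 were upregulated and 2 were downregulated DE genes, beside 7.34% and 5.84% of all tested genes, and the median log2 fold change was -0.18. LTB, the membrane-bound TNF family ligand lymphotoxin beta, fell from 18.7, 18.7 and 18.5 FPKM to 11.6, 11.5 and 13.1 FPKM (limma, log2 fold change -0.54 ± 0.08 SE, adjusted p = 0.0132, lower in 3 of 3 case libraries). IL6R, the interleukin-6 receptor, fell from 3.73, 3.64 and 3.51 FPKM to 2.25, 2.675 and 2.26 FPKM (limma, log2 fold change -0.51 ± 0.10 SE, adjusted p = 0.0233, lower in 3 of 3 case libraries). The most abundant gene of the list, the TNF receptor TNFRSF1A, was at 70.6, 69.0 and 67.9 FPKM against 79.4, 69.7 and 74.0 FPKM (limma adjusted p = 0.197). The calls of LTB and IL6R were lost when any 1 of the control libraries 1, 2 and 3 was left out, with adjusted p between 0.0702 and 0.108, and that of IL6R also without case library 3 (0.0778) and without the filter on low values (0.0586).

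In the NF-kappaB pathway all 19 genes of the list were tested, 4 were upregulated and 0 were downregulated DE genes, beside 7.34% and 5.84% of all tested genes, and the median log2 fold change was 0.22 against -0.0017 for all tested genes. NFKB2, the precursor of the p52 subunit of the noncanonical arm, rose from 85.2, 85.2 and 87.0 FPKM to 137, 118 and 123 FPKM (limma, log2 fold change 0.63 ± 0.09 SE, adjusted p = 0.0124). RELB, its usual partner, rose from 21.7, 21.6 and 23.1 FPKM to 37.0, 30.8 and 32.0 FPKM (limma, log2 fold change 0.66 ± 0.10 SE, adjusted p = 0.0140). NFKBIA, which encodes the inhibitor IkappaB-alpha and was the most abundant gene of the list, rose from 165, 157 and 175 FPKM to 232, 200.03 and 212 FPKM (limma, log2 fold change 0.45 ± 0.10 SE, adjusted p = 0.0259). NFKBIE, another inhibitor, rose from 35.6, 33.0 and 36.4 FPKM to 59.2, 46.3 and 47.8 FPKM (limma, log2 fold change 0.61 ± 0.12 SE, adjusted p = 0.0221). For these 4 genes all 3 case libraries were above all 3 control libraries, and the highest value was in case library 1. The main activating subunit RELA was at 41.2, 42.4 and 39.7 FPKM against 46.2, 41.3 and 39.3 FPKM (limma adjusted p = 0.439). REL had the lowest fold change of the list, -1.17 ± 0.40 SE, from 0.930 to 1.20 FPKM against 0.175 to 0.747 FPKM (limma adjusted p = 0.0855). The number of upregulated genes in this list fell to 0 when any 1 of control libraries 1, 2 and 3 or case library 3 was left out. It was 2 without the filter on low values and without the intensity trend, and 9 after a correction for GC content. The count over all tested genes moved in the same direction, from 998 upregulated genes to 76, 55 and 68 without control library 1, 2 or 3, 121 without case library 3, 347 without the filter, 436 without the trend and 1774 after the GC correction.

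**Figure D5:**
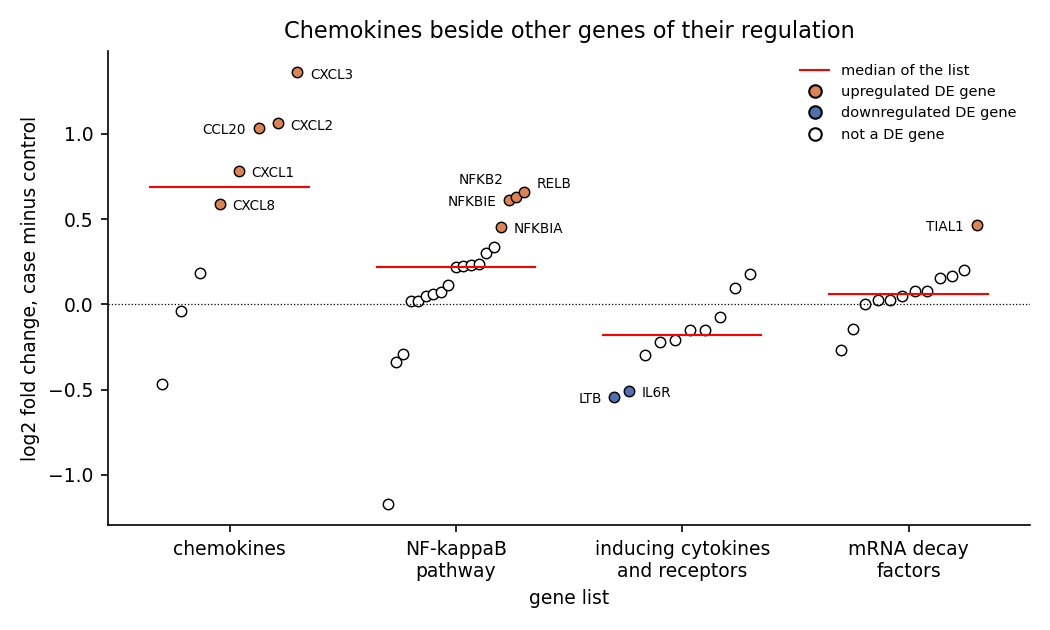
Log2 fold change (case minus control) of the tested genes in 4 lists, with the chemokines beside the NF-kappaB pathway, inducing cytokines and receptors, and mRNA decay factors; each point is a gene, orange for upregulated and blue for downregulated DE genes, and red lines are list medians. The medians are 0.69, 0.22, -0.18 and 0.06, and the chemokines were selected on these values.

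The 3′ ends of the set differ in AU-rich elements. The nonamer TTATTTATT occurs 5 times in the MANE Select 3′ end of CXCL2, 3 times in CXCL1 and 1 time each in CXCL3, CXCL8 and CX3CL1, and not in CXCL5, CXCL6, CXCL16, CCL2 and CCL20. This makes 5 of 10 genes, where 9.45% of 11199 tested genes with such an annotation held it. The shorter ATTTA was counted 11 times in CXCL5, 10 in CXCL2, 9 in CXCL8, 7 in CXCL3, 6 each in CXCL1 and CXCL6, 3 in CCL20, 2 in CX3CL1 and 1 each in CXCL16 and CCL2, against a median of 2 in tested genes. Per kb of 3′ end ATTTA occurred 13.97 times in CXCL2, 10.4 times in CXCL3, 7.77 times in CXCL1, 7.19 times in CXCL8, 6.34 times in CCL20, 5.51 times in CXCL5, 5.36 times in CXCL6 and at most 2.66 times in CCL2, CXCL16 and CX3CL1, against a median of 1.69 in tested genes. Of the 12 factors known to bind such elements or to act on these mRNAs, all were tested, 1 was an upregulated and 0 were downregulated DE genes, and the median log2 fold change was 0.06. This count is near the 7.34% of all tested genes that were called upward. The upregulated gene was TIAL1, an RNA-binding protein that represses translation, with 11.6, 11.4 and 11.0 FPKM against 13.5, 14.8 and 16.5 FPKM (limma, log2 fold change 0.47 ± 0.09 SE, adjusted p = 0.0201, higher in 3 of 3 case libraries). It was not called on the TPM scale (adjusted p = 0.0810) nor without any 1 of control libraries 1, 2 and 3 or case library 3 (adjusted p between 0.0605 and 0.0965). KHSRP, the most abundant of these factors and a promoter of decay, was at 111, 112 and 113 FPKM against 103, 98.1 and 86.9 FPKM (limma, log2 fold change -0.15 ± 0.09 SE, adjusted p = 0.2904). ZFP36, or tristetraprolin, which directs AU-rich mRNAs to decay, was at 10.9, 12.7 and 10.6 FPKM against 11.3, 11.6 and 10.6 FPKM (limma adjusted p = 0.759).

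Tubular injury is the setting in which these chemokines are usually described. Of 10 injury markers 6 were tested, 3 were upregulated and 0 were downregulated DE genes, beside 7.34% and 5.84% of all tested genes. ICAM1, an adhesion molecule for leukocytes, rose from 69.9, 68.4 and 63.7 FPKM to 94.3, 99.1 and 81.8 FPKM (limma, log2 fold change 0.52 ± 0.09 SE, adjusted p = 0.0177). VIM, the intermediate filament vimentin, rose from 91.1, 96.1 and 97.1 FPKM to 150.1, 119 and 162 FPKM (limma, log2 fold change 0.66 ± 0.13 SE, adjusted p = 0.0204). CLU, the secreted chaperone clusterin, rose from 23.0, 22.0 and 22.7 FPKM to 32.4, 27.7 and 30.9 FPKM (limma, log2 fold change 0.50 ± 0.10 SE, adjusted p = 0.0201). In each of the 3 genes all case libraries were above all control libraries. HAVCR1, the kidney injury molecule, was at 0 in 4 libraries, VCAM1 was listed at 0 in all 6, and the other 3 tested markers had negative fold changes that were not called. LCN2, or neutrophil gelatinase-associated lipocalin, had a log2 fold change of -0.18 ± 0.11 SE with overlapping groups (limma adjusted p = 0.292). The metalloprotease inhibitor TIMP2 had one of -0.18 ± 0.09 SE (limma adjusted p = 0.184), with every case library below every control library, and the transcription factor SOX9 one of -0.14 ± 0.12 SE with overlapping groups (limma adjusted p = 0.449). Among the tubular markers CDH1, the epithelial cadherin, fell from 3.34, 3.50 and 3.40 FPKM to 1.83, 2.32 and 2.00 FPKM (limma, log2 fold change -0.64 ± 0.11 SE, adjusted p = 0.0156), and GATM was lower in 3 of 3 case libraries (limma, log2 fold change -0.35 ± 0.10 SE, adjusted p = 0.0496). ICAM1, VIM, CLU, CDH1 and GATM were not called without any 1 of control libraries 1, 2 and 3, and all of them but ICAM1 were not called without case library 3 (limma, adjusted p between 0.0583 and 0.175 over these fits). With all libraries kept, ICAM1 was not called with quantile normalization, CLU and VIM without the filter on low values, VIM without the intensity trend, and GATM under 8 alternatives. Whether the change of these markers has a part in the chemokine values was not tested.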

How the data were processed

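RNA of 3 control and 3 case libraries of HK-2 cells was analysed. FPKM values were deposited by the authors and made from quality-filtered 150-bp paired-end reads with HISAT2 (version 2.1.0), HTSeq (version 0.6.0) and the build GRCh38.p13. Selection of RNA, strandedness and annotation version are not given in the sources used here. Symbols were found for 29063 of 29483 genes. FPKM was divided by median-of-ratios factors (0.944 to 1.04), 0.1 was added, and genes with a mean of at least 0.5 FPKM were fitted on the log2 scale with limma (version 3.58.1, R 4.3.3) and an intensity trend. Benjamini-Hochberg adjustment was over 13599 genes, and an adjusted p of at most 0.05 made a DE gene. Fold changes refer to log2(FPKM + 0.1), which understates low genes. Whole reads were recovered from the FPKM steps for 98.3% of genes above 0 (tolerance 0.001 of a read), or 99.5% of the reads, and were used for counting error and in 1 alternative fit. The fit was tested on simulated data. P-values measure the spread between these samples, which may be technical. The median SD between libraries was 0.089 (control) and 0.189 (case) on the log2 scale.

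The members and lists were chosen with earlier results of these data known. The rule for named genes took all members, every list gene past the threshold (at most 5 per list), the most abundant gene of each list and, for CXCL2 and CXCL8, the 3 most similar genes. Neighbours on chromosome 4, receptors, TNF, LTA, IL1A, IL1B, IL6, RELA, REL, ZFP36, LCN2, TIMP2, SOX9, ADAM10, CXCL10, PF4 and other markers at or near 0 were named after their values were seen. Alternatives were other pseudocounts, filters, scalings and fits, leaving out each library, and, chosen after seeing the data, corrections for gene length and GC content. Some marker genes are not reported here.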

Additional observations from a re-analysis of the deposited data

How the results depend on the processing

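CXCL1, CXCL2, CXCL3 and CCL20 were upregulated DE genes under all 19 alternatives, and CXCL8 under 13 of them. CXCL8 was not called without the filter on low values (log2 fold change 0.60, adjusted p = 0.0504), with quantile normalization (0.34, adjusted p = 0.0586) or when control library 1, 2 or 3 or case library 3 was left out. The number of upregulated chemokines was therefore 4 or 5 throughout. On the TPM scale 1 chemokine, CXCL6, was a downregulated DE gene (-0.66, adjusted p = 0.0447) and CXCL5 turned to -0.0086, while relative to the median of all genes these were -0.46 and 0.19. CXCL16 turned to 0.00048 with quantile normalization, 0.016 without control library 1 and 0.053 without case library 3, within a range of -0.096 to 0.053 over the left-out libraries. Over all genes 998 upregulated and 794 downregulated DE genes became 347 and 177 without the filter, 383 and 2387 with TPM, 436 and 416 without the intensity trend, and 1774 and 1491 after the GC correction, upregulated genes numbered 662 without scaling, and downregulated genes numbered 1503 with voom on whole reads. Leaving out each library gave 55 to 1813 upregulated and 14 to 1682 downregulated DE genes, with 69 in all without control library 2, 87 without control library 3, 105 without control library 1, 192 without case library 3 and 3495 without case library 2. In the NF-kappaB list 4 upregulated genes became 2 without the filter, 2 without the intensity trend, 9 after the GC correction and 0 to 6 when a library was left out. The causes were not tested. Same-numbered libraries correlated at 0.063, 0.10 and -0.053 in their deviations, so the numbers were not taken as pairs. A fit with the replicate block gave 1610 DE genes, of which 848 were upregulated, and 5 upregulated chemokines, while CD14 (adjusted p = 0.0613) and GATM (0.0868) were no longer called. Depth limits CCL2, CX3CL1, PF4 and CXCL10, which rest on few or no reads. With 3 libraries per group an exact permutation test of a single gene cannot go below p = 0.1.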
